A study of Mus musculus with 4 samples.

Results

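A set of 6 genes of the Ly6 surface antigen family, Ly6c2, Ly6c1, Ly6a, Ly6e, Ly6i and Ly6d, was followed through CSF1R+ cells of the mouse heart. The genes were taken by gene symbol from the deposited tables and make up 6 of 31053 listed genes. All 6 were among the 18865 genes found in at least 3 cells. Cells were assigned to classes by marker genes that include no Ly6 gene, so the Ly6 values played no part in choosing the cells.

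Ly6 proteins are small cysteine-rich proteins with a single folded domain, held on the outer face of the cell by a lipid anchor. Several are used as antibody targets in flow cytometry. Ly6C, the product of Ly6c1 and Ly6c2, separates classical from non-classical monocytes. Ly6a encodes stem cell antigen 1 (Sca-1), a marker of blood stem cells and of endothelium that interferons induce. Ly6e is also interferon-inducible and acts on the entry of several viruses. Ly6d marks lymphoid precursors that have turned towards the B cell lineage. Ly6i is a close relative of Ly6a and Ly6c2 and is less well described. After coronary occlusion, classical monocytes enter the infarct from blood and become macrophages, while the uninjured heart holds mainly long-lived resident macrophages.

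Single-cell libraries covered cells positive for EGFP and negative for Ly6G, sorted from the hearts of CSF1R-EGFP+ mice aged 12 to 16 weeks. In these reporter mice the Csf1r promoter drives EGFP, and in every library the sort excluded cells with Ly6G, a neutrophil antigen, although 53 to 86 granulocyte-like cells per library remained. The baseline group was 1 library pooled from 3 hearts without surgery. Each of the 3 infarct libraries came from a single heart, taken 7 days after ligation of the left coronary artery, which was not reperfused. A pooled library has no spread, so infarct and baseline are given side by side without a test. Tests were run only between cell classes within the 3 infarct hearts.

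The thresholds stated in the study, applied again here, kept 10238 baseline cells with a median of 6398.5 unique molecular identifiers (UMIs). They kept 10117 to 10782 cells per infarct library, with medians of 8469.5 to 8556.5 UMIs. The study reports fewer analysed cells in both groups, and the reason for the difference was not examined. Pairs of libraries shared 26 to 34 cell barcodes, at most 0.332% of the smaller library. Of 41533 cells, 31130 passed the macrophage gate (markers such as C1qa, C1qb, C1qc, Adgre1, Mertk and Fcgr1), and 4494 the classical monocyte gate (markers such as Plac8, Chil3, Vcan, Ccr2 and Hp). The sort also held dendritic-like, B cell-like and endothelial-like cells, so the label of macrophages did not cover all cells. Classes are exclusive and carry "-like", as they rest on transcripts alone. Cells past both of these gates are called transitional, and cells past the classical and non-classical monocyte gates are called intermediate. Levels are UMIs of a gene per 1000000 UMIs of the summed cells (CPM), without mitochondrial genes. Intervals of a single library are exact 95% Poisson or binomial intervals and cover counting error only.

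The 6 genes lie in a 350.0 kb stretch of chromosome 15 (GRCm38, GENCODE vM21). In order they are Ly6d (ENSMUSG00000034634, chr15:74762056-74763620, minus strand), Ly6e (ENSMUSG00000022587, chr15:74955051-74959905, plus strand), Ly6i (ENSMUSG00000022586, chr15:74979534-74983430, minus strand) and Ly6a (ENSMUSG00000075602, chr15:74994877-74998031, minus strand). Ly6c1 (ENSMUSG00000079018, chr15:75044018-75048830) and Ly6c2 (ENSMUSG00000022584, chr15:75108158-75111970) follow on the minus strand. The transcripts of Ly6c1 and Ly6c2 were 97.6% identical over 822 aligned bases. Of 673 windows of 150 bases in the Ly6c2 transcript, 39 (5.79%) also occurred in Ly6c1, and reads from these cannot be assigned to either gene. No such window was shared with Ly6a, Ly6e, Ly6i or Ly6d, although Ly6a and Ly6i were 87.8% identical. Low Ly6c1 values beside high Ly6c2 values are therefore uncertain.

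RefSeq promoter sequence (GRCm38.p6) was matched for 2 of the 6 genes, Ly6c1 and Ly6c2, the near-identical pair of which one was high in monocyte-like and the other in endothelial-like cells. The 250 bases before the first start site of each gene are shown, 5′ to 3′ on the minus strand. Capitals mark GAGGAAGT, the motif searched for PU.1, a transcription factor that macrophages and monocytes require.
Ly6c1, chr15:75048838-75049087: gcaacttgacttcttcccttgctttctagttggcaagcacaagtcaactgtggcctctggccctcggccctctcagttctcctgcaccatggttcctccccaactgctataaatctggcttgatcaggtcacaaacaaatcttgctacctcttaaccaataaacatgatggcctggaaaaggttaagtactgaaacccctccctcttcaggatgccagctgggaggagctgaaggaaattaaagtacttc
Ly6c2, chr15:75111972-75112221: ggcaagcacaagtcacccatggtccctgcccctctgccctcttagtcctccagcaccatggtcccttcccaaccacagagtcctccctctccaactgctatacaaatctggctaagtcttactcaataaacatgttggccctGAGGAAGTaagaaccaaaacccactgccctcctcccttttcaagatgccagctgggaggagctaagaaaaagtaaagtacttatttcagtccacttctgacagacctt
The pair was 81.0% identical over 210 aligned bases here. GAGGAAGT lay at -108 to -101 of the first Ly6c2 start site and again at 27 to 34 after it, and 3.2% of 32851 promoters held it on either strand. The same search found it before the second annotated start site of Ly6c1 (75048663), at -127 to -120. On the minus strand this match lies after the first start site (75048837), outside the window searched there. Both genes therefore held a match after their first start site, and the one at -108 to -101 was found for Ly6c2 only. GAAANNGAA (the core of the interferon-stimulated response element, in 8.56% of promoters) was not matched in these windows. A match of letters is a description and no evidence of binding.

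**Figure D1:**
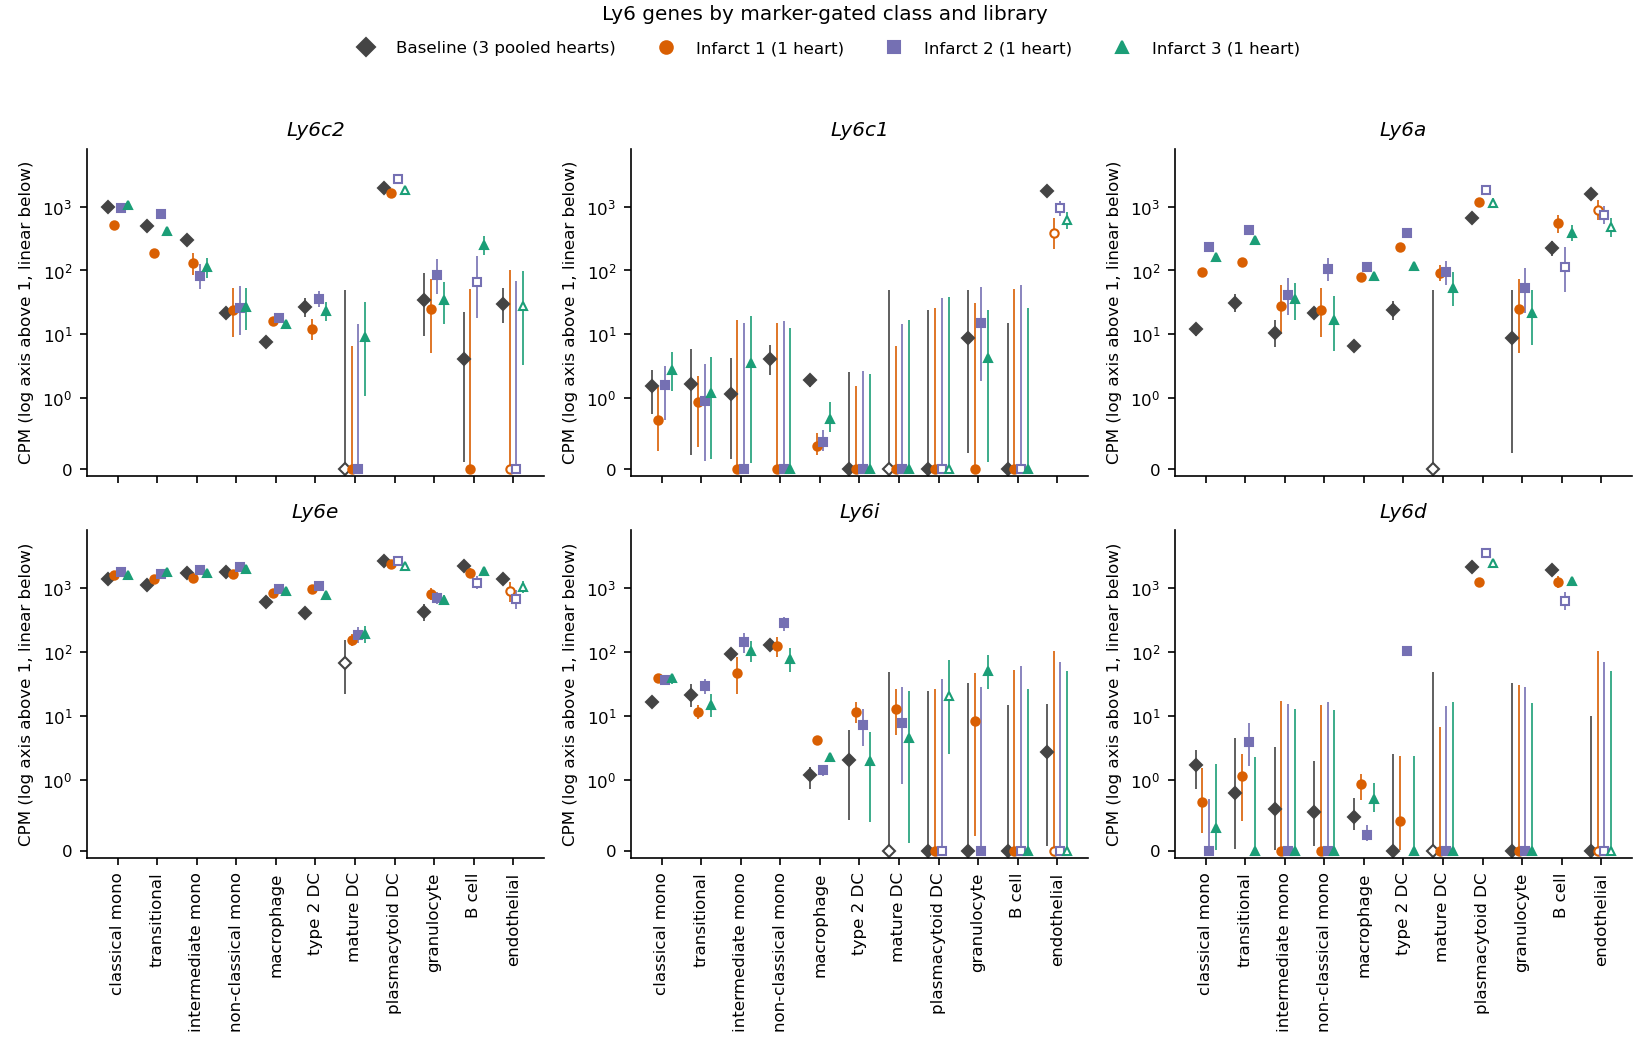
CPM of each gene (vertical axis, log scale above 1 and linear below) in 11 marker-gated classes, by library. Symbols are summed cells of 1 library, vertical lines are exact 95% Poisson intervals, and open symbols rest on fewer than 20 cells. Ly6c2 is high in classical monocyte-like and plasmacytoid dendritic-like cells, Ly6c1 in endothelial-like cells, Ly6i in non-classical monocyte-like cells and Ly6d in plasmacytoid dendritic-like and B cell-like cells.

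To ask where each gene was transcribed, classes were compared within the infarct hearts. Each class was set against all other gated cells of the same heart for the 8 classes with 20 or more cells in each infarct library. Of 48 pairs of gene and class, 27 passed an adjusted p of 0.01, 11 of them higher and 16 lower in the class (edgeR quasi-likelihood test with Benjamini-Hochberg adjustment over all genes). The shares of all tested genes past that threshold were 30.4% for classical monocyte-like, 13.9% for intermediate, 15.9% for non-classical monocyte-like, 7.88% for transitional, 30.5% for macrophage-like, 31.6% for type 2 dendritic-like, 22.8% for mature dendritic-like and 15.7% for granulocyte-like cells. Macrophage-like cells were below the rest for all 6 genes, but few cells held much of the Ly6c1 and Ly6d of the rest. Of its 151 Ly6c1 UMIs, 14, 51 and 45 lay in 8, 8 and 7 endothelial-like cells of replicates 1, 2 and 3. Of its 1242 Ly6d UMIs, 178, 348 and 237 lay in 20, 12 and 11 plasmacytoid dendritic-like cells. Transitional cells were above the rest for Ly6c2, Ly6a and Ly6e and below for none. These 3 calls were lost without the heart as a block, at adjusted p of 0.0228, 0.0649 and 0.0197 (edgeR). Ly6i in transitional cells missed the threshold (log2 fold 1.46 ± 0.33, edgeR adjusted p = 0.0116) and passed it in 7 of 12 alternatives (5.58e-09 to 0.07).

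Ly6c2, the main Ly6C gene of classical monocytes, followed the monocyte gate closely. In classical monocyte-like cells its level was 997 CPM at baseline (95% interval 974 to 1021) and 523, 945 and 1048 CPM in infarct replicates 1, 2 and 3. The baseline value lies inside the range of the infarct hearts, and replicate 1 was the lowest. All other gated cells of the infarct hearts had 32.9, 41.6 and 26.9 CPM. The summed value of the class was above that of the other cells in every infarct heart, and the log2 fold was 4.62 ± 0.22 (SE, n = 3, edgeR adjusted p = 2.9e-06). Against macrophage-like cells alone, at 16.2, 18.3 and 14.3 CPM, the log2 fold was 5.66 ± 0.22 (edgeR adjusted p = 9.34e-07). Of baseline classical monocyte-like cells, 87.7% held a Ly6c2 UMI, beside 65.9%, 73.7% and 76.6% in the infarcts. After each cell was thinned to 2000 UMIs and gated again, these shares were 64.5%, 45.1%, 53.5% and 60.9%, and no Ly6c2 UMI was left in 7, 63, 35 and 25 mature dendritic-like cells, taken as a type without the transcript.

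Among the monocyte classes, Ly6c2 was highest in classical, lower in intermediate and lowest in non-classical cells in every library. The intermediate cells had 295 CPM at baseline and 129, 82.8 and 113 CPM in the infarcts. Non-classical monocyte-like cells had 21.8, 24.3, 26.3 and 27 CPM, a level that varied little between libraries. In the infarct hearts the non-classical cells were below all other gated cells, with a log2 fold of -1.85 ± 0.28 (edgeR adjusted p = 1.41e-09). Against macrophage-like cells alone the direction turned, to 0.49 (edgeR adjusted p = 0.424, where the alternatives ranged from 2.05e-10 to 0.424). Intermediate cells did not pass against the other gated cells (log2 fold 0.26 ± 0.20, edgeR adjusted p = 0.444). Against macrophage-like cells alone, at 16.2, 18.3 and 14.3 CPM, they were higher (edgeR adjusted p = 7.35e-24), and they passed in none of the other 9 alternatives (up to 0.917).

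Plasmacytoid dendritic-like cells, the main producers of type I interferon, also had much Ly6c2. Their level was 1978 CPM in 21 baseline cells and 1627, 2691 and 1842 CPM in 20, 12 and 11 infarct cells. Between 90.9% and 95.2% of these cells held a Ly6c2 UMI. Their numbers were too small for a test, and their median cell carried 38.6 UMIs per 10000 of the classical monocyte list at baseline and 55.9 in the infarcts. Ly6c2 was near 0 in mature dendritic-like cells, with 0, 0 and 8.92 CPM in the infarcts. Their log2 fold against the other gated cells was -5.41 ± 0.51 (edgeR adjusted p = 5.64e-25). Type 2 dendritic-like cells, with 12, 36.2 and 23.1 CPM, were also below the rest (log2 fold -1.95 ± 0.19, edgeR adjusted p = 5.68e-08), but not below macrophage-like cells (0.45, edgeR adjusted p = 0.0784, where the alternatives ranged from 3.18e-24 to 0.756). For granulocyte-like cells the same held, with -1.18 ± 0.31 against the rest (edgeR adjusted p = 0.0012) and 1.15 against macrophage-like cells (edgeR adjusted p = 0.0356, where the alternatives ranged from 0.000437 to 0.269). The granulocyte call against the rest was lost without infarct replicate 1 and without replicate 3 (edgeR adjusted p = 0.0554 and 0.269).

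Like Ly6a, Ly6c1, the second Ly6C gene, was highest in endothelial-like cells at baseline. It had 1747 CPM in 137 baseline endothelial-like cells (1615 to 1887), of which 77.4% held a UMI. In the 7 or 8 endothelial-like cells of each infarct library it had 391, 950 and 615 CPM. Classical monocyte-like cells had 1.55 CPM at baseline and 0.687, 1.59 and 2.81 CPM in the infarcts. Of their combined UMIs of the Ly6c pair, Ly6c1 made up 0.155%, 0.131%, 0.168% and 0.268%. In endothelial-like cells at baseline it made up 98.3%, with 644 UMIs beside 11 of Ly6c2. Plasmacytoid dendritic-like cells had no Ly6c1 UMI beside 178 to 300 of Ly6c2 per library. Macrophage-like cells in the infarcts, at 0.332, 0.386 and 0.712 CPM, were below the other gated cells (1.64, 6.49 and 7.25 CPM), with a log2 fold of -3.26 ± 0.37 (edgeR adjusted p = 0.000958). Over the alternatives its adjusted p ranged from 3.28e-13 to 0.0152, the latter without infarct replicate 3.

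Ly6i, unlike Ly6c2, was higher in non-classical than in classical monocyte-like cells. Non-classical monocyte-like cells had 128 CPM at baseline (117 to 141) and 122, 281 and 77.6 CPM in the infarcts. Intermediate cells had 94.6, 46, 141 and 102 CPM, and classical monocyte-like cells 16.2, 38.5, 36.4 and 38.5 CPM. In every library the non-classical cells were above the classical cells, while non-classical and intermediate cells changed places in replicate 3. All 3 classes were above the other gated cells of the infarct hearts. Their log2 folds were 4.49 ± 0.30 for non-classical, 3.92 ± 0.34 for intermediate and 3.24 ± 0.16 for classical cells (edgeR adjusted p = 2.03e-48, 2.12e-29 and 2.98e-06). Macrophage-like cells, at 4.11, 1.4 and 2.24 CPM, were below the rest (-3.54 ± 0.37, edgeR adjusted p = 0.000688, and 1.65e-09 to 0.0111 over the alternatives, highest without infarct replicate 3). Between 19.4% and 53.1% of non-classical cells held a Ly6i UMI.

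Ly6e was found in most cells of the monocyte and macrophage classes. Its level in classical monocyte-like cells was 1382 CPM at baseline and 1593, 1788 and 1623 CPM in the infarcts, with a UMI in 97.3% to 99.5% of cells. Non-classical monocyte-like cells had 1812, 1637, 2110 and 1977 CPM. Macrophage-like cells had 601 CPM at baseline and 850, 972 and 903 CPM in the infarcts, below both monocyte classes in every library, with a UMI in 67.9% of baseline and 86.1% to 87.1% of infarct cells. The log2 fold of classical monocyte-like over macrophage-like cells was 0.91 ± 0.06 (edgeR adjusted p = 9.57e-06). Against all other gated cells it was 0.86 ± 0.06 for classical, 0.66 ± 0.10 for intermediate, 0.77 ± 0.11 for non-classical and 0.72 ± 0.07 for transitional cells (edgeR adjusted p = 1.22e-05, 5.25e-09, 6.67e-11 and 3.4e-05).

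Mature dendritic-like cells, which have migrated from a sampling to a T cell-activating state, stood lowest for Ly6e. They had 153, 186 and 192 CPM in the infarcts, a log2 fold of -2.48 ± 0.18 against the rest (edgeR adjusted p = 2.52e-43). Granulocyte-like cells, at 814, 705 and 658 CPM, were lower by a smaller amount (-0.80 ± 0.14, edgeR adjusted p = 4.29e-07, or 1.54e-07 to 0.0534 over the alternatives, highest without infarct replicate 3). The highest Ly6e levels were in plasmacytoid dendritic-like cells, with 2690 CPM at baseline and 2419, 2640 and 2194 CPM in the infarcts.

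Ly6a, the Sca-1 gene, was high in baseline endothelial-like cells, with 1576 CPM (1451 to 1710). Plasmacytoid dendritic-like cells had 673 CPM at baseline and 1181, 1807 and 1149 CPM in the infarcts. Among classes large enough for a test, transitional cells had 134, 429 and 300 CPM in the infarcts and type 2 dendritic-like cells 234, 393 and 119 CPM. Both were above the other gated cells, with log2 folds of 1.35 ± 0.17 and 1.18 ± 0.15 (edgeR adjusted p = 0.000277 and 2.4e-06). Each call held in 11 of 12 alternatives, over which the adjusted p rose to 0.0649 and 0.0167.

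Classical monocyte-like cells, at 94.6, 230 and 163 CPM, were above macrophage-like cells (80.4, 114 and 81.1 CPM), with a log2 fold of 0.78 ± 0.15 (edgeR adjusted p = 0.00292). This call was lost without infarct replicate 3, with thinned cells and without the heart as a block, at adjusted p of 0.0242, 0.0155 and 0.0445 (edgeR). Against all other gated cells classical monocyte-like cells missed the threshold (0.61 ± 0.15, edgeR adjusted p = 0.0113) and passed it in 5 of 12 alternatives (2.01e-07 without infarct replicate 1, and up to 0.0999). Non-classical, intermediate and granulocyte-like cells were below the rest for Ly6a, with log2 folds of -1.43 ± 0.24, -1.73 ± 0.26 and -2.09 ± 0.33 (edgeR adjusted p = 3.27e-08, 3.72e-10 and 4.41e-09). The log2 fold of macrophage-like cells was -1.06 ± 0.13 (edgeR adjusted p = 0.0012). Without infarct replicate 3 the adjusted p was 0.0114 for non-classical, 0.0366 for granulocyte-like and 0.0143 for macrophage-like cells (edgeR), and these calls were lost. The non-classical call held in 10 of 12 alternatives (adjusted p up to 0.0426) and the macrophage-like call in 9 of 11 (up to 0.0188). In mature dendritic-like cells a single cell held 74.5% of the Ly6a UMIs of infarct replicate 1 and another 95.8% of those of replicate 2. The 91.8, 93.2 and 53.5 CPM of this class therefore describe few cells.

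Ly6d was high in plasmacytoid and B cells. Plasmacytoid dendritic-like cells had 2130 CPM at baseline and 1259, 3534 and 2452 CPM in the infarcts. B cell-like cells had 1946 CPM in 76 baseline cells and 1260, 634 and 1278 CPM in 20, 9 and 36 infarct cells. Macrophage-like cells had between 0.226 and 0.945 CPM in the 4 libraries. In the infarcts they were below the other gated cells (15.4, 55.9 and 52.3 CPM), with a log2 fold of -5.88 ± 0.58 (edgeR adjusted p = 0.000585, and 4.62e-09 to 0.0121 over the alternatives, highest without infarct replicate 3). Classical monocyte-like cells were also lower (-3.77 ± 0.48, edgeR adjusted p = 0.000398), from 7 UMIs in 3 libraries. This call held in 10 of 12 alternatives, over which the adjusted p rose to 0.311. Type 2 dendritic-like cells of replicate 2 had 105 CPM, all from 1 cell with 148 Ly6d UMIs.

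**Figure D2:**
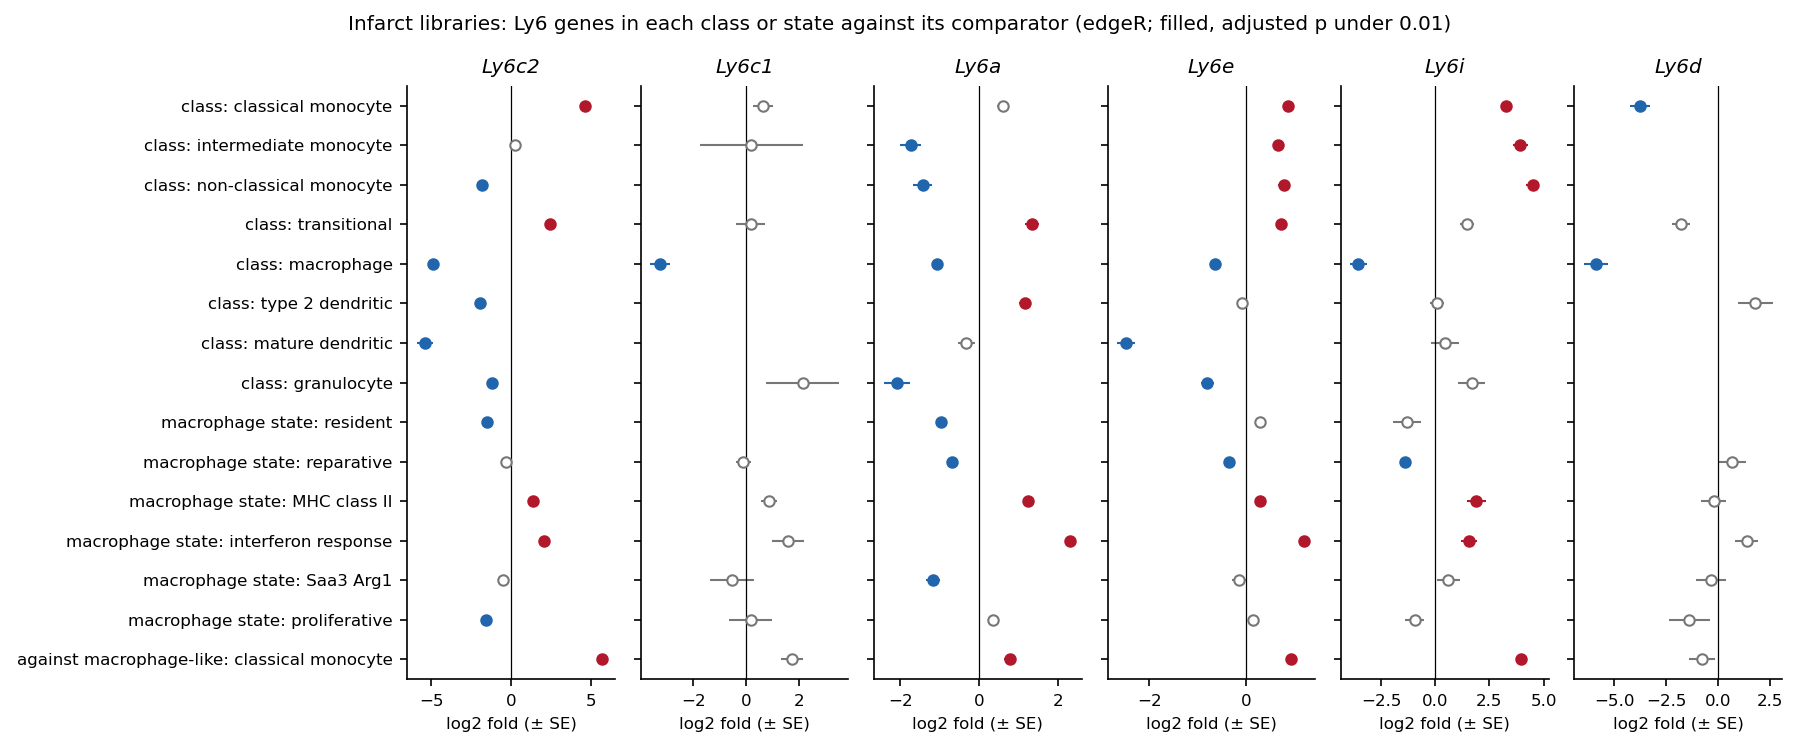
Log2 fold (horizontal axis, ± SE) of each gene in each class or macrophage state against its comparator, in the 3 infarct libraries. Filled red and blue points passed an adjusted p of 0.01 as higher and lower, open points did not, and pairs with no UMI on a side are not drawn. Ly6c2 and Ly6i point in opposite directions in non-classical monocyte-like cells, and Ly6a and Ly6e are both higher in the interferon response state.

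Set directly against macrophage-like cells, classical monocyte-like cells were higher for 4 of the 6 genes, Ly6c2, Ly6i, Ly6e and Ly6a, where 32.5% of all tested genes were called in either direction. The log2 fold of Ly6i was 3.97 ± 0.26 (edgeR adjusted p = 9.82e-06). Ly6c1 missed the threshold (1.75 ± 0.43, edgeR adjusted p = 0.0103) and passed it in 7 of 11 alternatives, over which its adjusted p ranged from 0.00684 to 0.462. Ly6d did not pass between these classes (log2 fold -0.79 ± 0.61, edgeR adjusted p = 0.311).

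How these genes changed between the monocyte and macrophage gates was described by grouping cells by their macrophage-list UMIs per 10000. In classical monocyte-gated cells with under 10, Ly6c2 was 1039 CPM at baseline and 533, 925 and 949 CPM in the infarcts. With 100 to 150 it was 349, 141, 699 and 323 CPM, lower in every library. Among macrophage-like cells it was 36.2, 33.2, 41.3 and 27 CPM with 50 to 100 macrophage-list UMIs, and 1.79, 5.95, 7.15 and 6.95 CPM with 200 and over. The groups between under 10 and 100 to 150 had no common order on the monocyte side, where replicate 3 was highest with 25 to 50, at 1328 CPM. Among macrophage-like cells Ly6c2 was lower in each next group of every library.

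Ly6a took another course. In monocyte-gated cells with under 10 macrophage-list UMIs per 10000 it was 5.5 CPM at baseline and 66.6, 67.4 and 56.1 CPM in the infarcts. With 150 and over it was 282, 713 and 399 CPM in the infarcts, where baseline held only 3 such cells. Replicates 1 and 2 were highest in that group, and replicate 3 with 25 to 50, at 465 CPM. In macrophage-like cells it stayed between 66.6 and 143 CPM in every group of every infarct library, with no common order of the groups. Ly6e in macrophage-like cells was 408, 728, 769 and 692 CPM with 50 to 100 and 878, 1020, 1128 and 1085 CPM with 200 and over. The median UMI count of the cells also differed between these groups, and its part in the values was not tested.

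**Figure D3:**
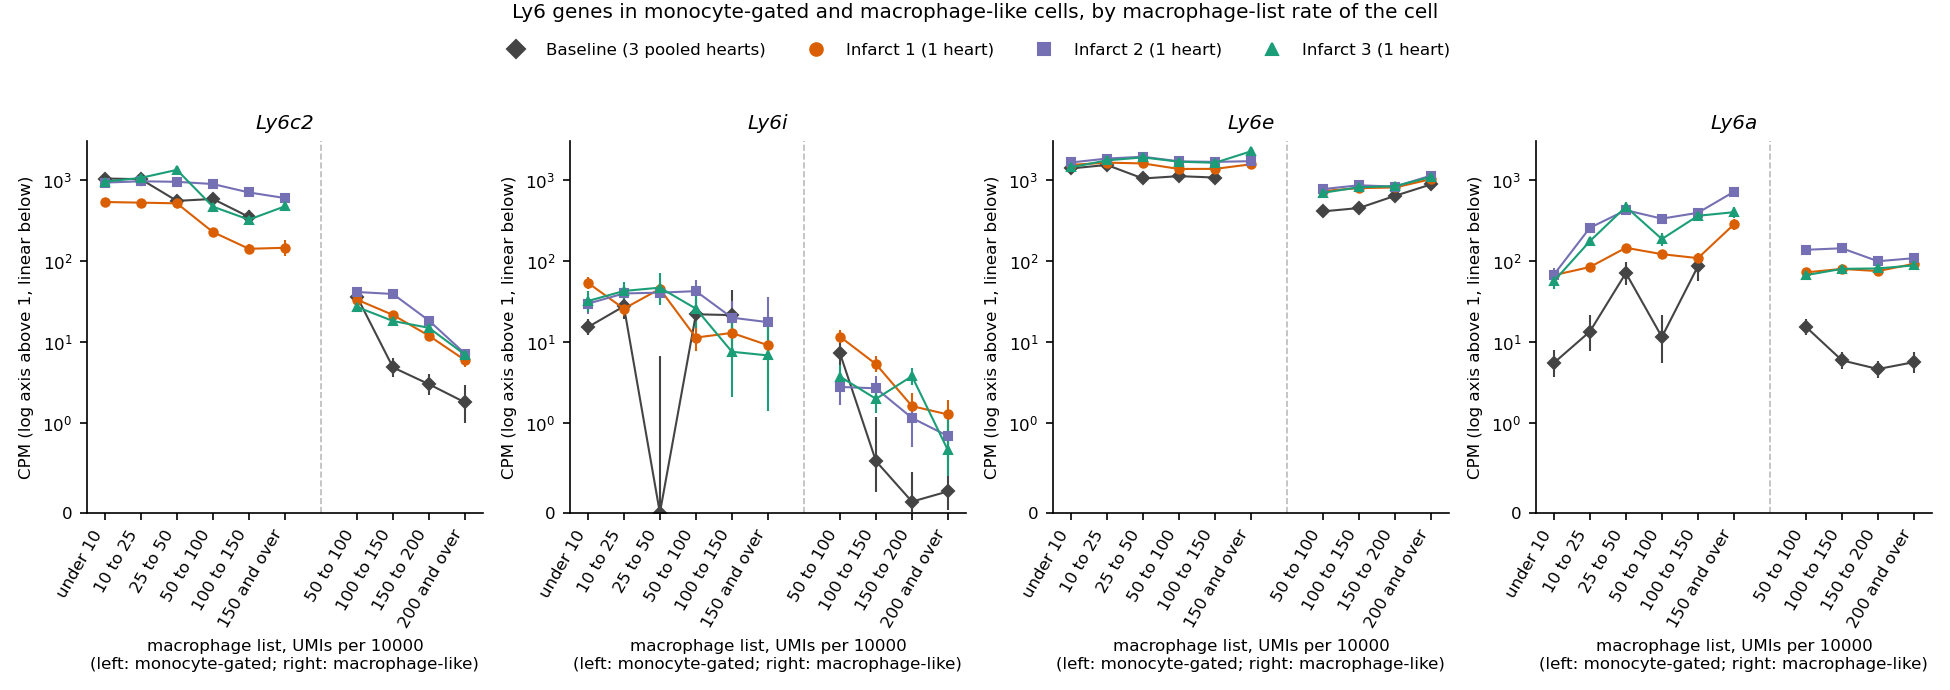
CPM (log scale above 1, linear below) of 4 genes in classical monocyte-gated cells (left of the dashed line) and macrophage-like cells (right), grouped by macrophage-list UMIs per 10000 (horizontal axis), by library. Vertical lines are exact 95% Poisson intervals, and groups under 20 cells are not drawn. Ly6c2 is lower at higher rates in macrophage-like cells, and lower with 100 to 150 than with under 10 in monocyte-gated cells. Ly6a is highest in monocyte-gated cells with 150 and over in infarct replicates 1 and 2, and with 25 to 50 in replicate 3.

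Macrophage-like cells were then divided by 6 states, each against all other macrophage-like cells of the same heart. States overlap, and their gates hold no Ly6 gene. Of 36 pairs of gene and state, 15 passed the threshold, 8 higher and 7 lower. The shares of all tested genes past it were 14.6% for the resident state (Lyve1, Cd163, Folr2), 24.5% for the reparative state (Gpnmb, Spp1, Trem2), 23.0% for the MHC class II state, 10.4% for the interferon response state, 25.1% for the state of Saa3 and Arg1, and 29.1% for the proliferative state.

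The interferon response state was set by Ifit1, Ifit2, Ifit3, Rsad2, Cxcl10, Isg15, Oasl1, Usp18 and Cmpk2. Ly6a in these cells was 305, 444 and 300 CPM in the infarct hearts, beside 68.1, 88 and 72.3 CPM in other macrophage-like cells. The ranges did not overlap, and the log2 fold was 2.31 ± 0.06 (n = 3, edgeR adjusted p = 2.6e-13). Ly6e was 1696, 1851 and 1814 CPM beside 803, 904 and 867 CPM, a log2 fold of 1.18 ± 0.04 (edgeR adjusted p = 1.23e-11). Ly6c2 was 40.4, 89.2 and 26.7 CPM beside 14.8, 12.8 and 13.8 CPM, a log2 fold of 2.07 ± 0.23 (edgeR adjusted p = 8.56e-06). Ly6i, from 63 UMIs in the state, was 4.45, 4.07 and 10.2 CPM beside 4.09, 1.19 and 1.92 CPM (1.57 ± 0.36, edgeR adjusted p = 0.00611). The Ly6i call was lost without infarct replicate 2 and without replicate 3, with thinned cells and without the heart as a block, at adjusted p of 0.0282, 0.0483, 0.154 and 0.125 (edgeR). Ly6c1 and Ly6d did not pass.

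Of 35 tested interferon-induced genes that no gate uses, such as Irf7 and Bst2, all 35 were higher in this state (median log2 fold 2.64, beside -0.03 over all genes). Of all tested genes, 7.57% were higher. The gate genes are interferon-induced too, so this is no independent check of the state by the list of 35 genes. The same list had 14 higher and 0 lower genes in the MHC class II state (median 0.19, beside 0 over all genes), and 0 higher and 15 lower in the reparative state (median -0.17, beside -0.01). It had 2 higher and 10 lower in the resident, 2 and 16 in the Saa3 and Arg1, and 3 and 22 in the proliferative state.

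In classes, it had 18 higher and 3 lower of 35 in classical monocyte-like and 13 and 0 in transitional cells. It had 1 and 19 in non-classical, 3 and 8 in intermediate, 2 and 7 in macrophage-like, 7 and 11 in type 2 dendritic-like, 8 and 13 in mature dendritic-like and 0 and 15 in granulocyte-like cells. Ly6e was higher in non-classical monocyte-like cells, where 19 of the 35 listed genes were lower. A relation between Ly6e and the list was not tested.

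Ly6a in replicates 1 and 2 was higher in each next group of interferon-list UMIs, and in replicate 3 with small steps back (221 to 209 CPM and 379 to 357 CPM). In macrophage-like cells without a UMI of the interferon gate list, Ly6a was 3.13 CPM at baseline and 36.7, 38.1 and 29.7 CPM in the infarcts. With 5 to 10 such UMIs per 10000 it was 18.1 CPM at baseline and 186, 210 and 221 CPM in the infarcts. With 100 and over, the infarcts had 377, 537 and 357 CPM in 51, 108 and 83 cells. The 21 baseline cells of that group had 16.8 CPM, from 3 UMIs, below the 119 CPM of the 44 baseline cells with 20 to 50, so baseline had no steady order. Ly6a was therefore lower at baseline than in every infarct heart in each group, including the cells without an interferon-list UMI, where the mean of the infarcts was 11.1-fold the baseline value.

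Ly6e was also higher in the highest than in the lowest group of every library. It was 500 CPM at baseline and 668, 693 and 662 CPM in the infarcts without an interferon-list UMI. With 100 and over it was 1620 CPM at baseline and 1602, 2076 and 1864 CPM in the infarcts, where the baseline value was inside the infarct range. Ly6c2 had no common order, with 156 CPM in replicate 2 and 2.71 CPM in replicate 3 in the highest group.

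**Figure D4:**
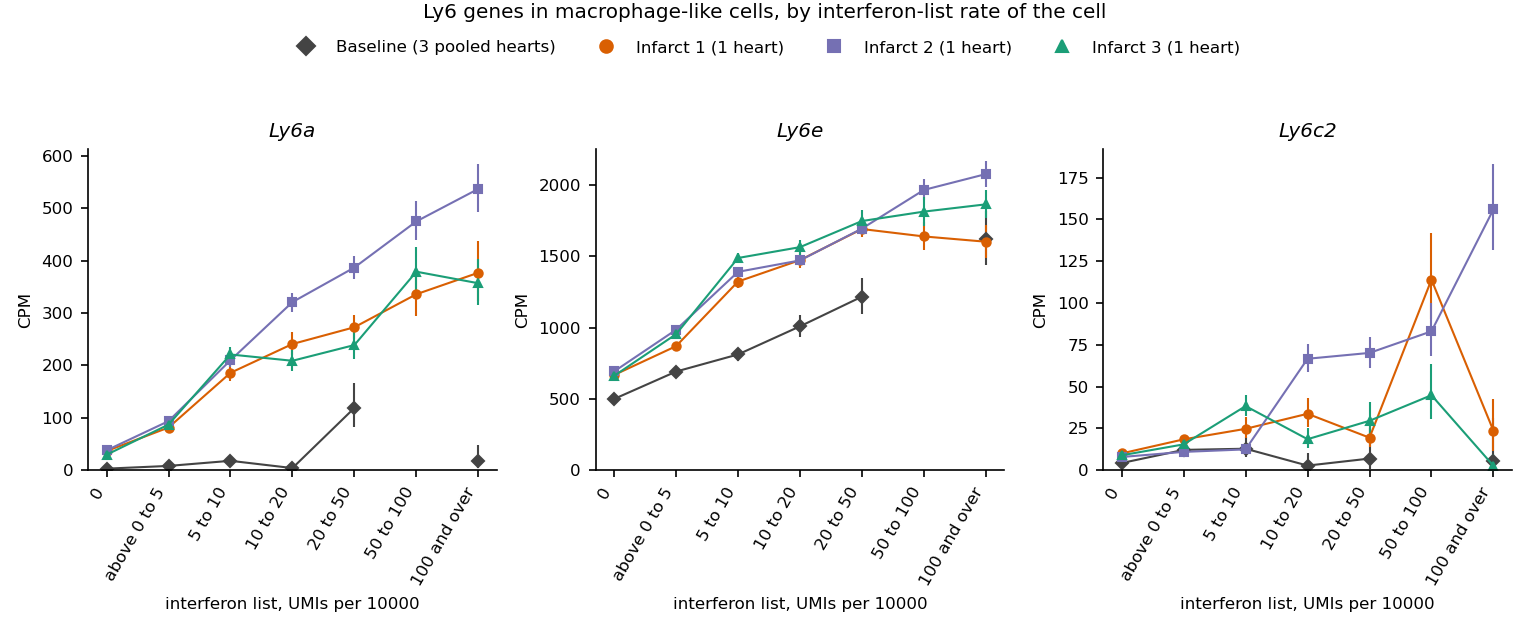
CPM of Ly6a, Ly6e and Ly6c2 in macrophage-like cells grouped by UMIs of the interferon gate list per 10000 (horizontal axis), by library. Vertical lines are exact 95% Poisson intervals, and groups under 20 cells are not drawn. Ly6a in the infarct hearts and Ly6e in all libraries are higher with 100 and over than without an interferon-list UMI. Ly6a at baseline has no such order above 10 and stays below all infarct hearts in each group drawn.

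The genes were also compared within single cells, at a depth of 2000 UMIs. A Ly6a UMI was found in 0.683% of baseline and 8.10%, 10.6% and 8.12% of infarct macrophage-like cells. Before thinning the shares were 1.99%, 17.4%, 21.1% and 17.1%, and 3.17%, 2.86% and 4.00% of thinned infarct mature dendritic-like cells held a Ly6a UMI. Of infarct macrophage-like cells with a Ly6a UMI, 91.3%, 92.1% and 92.4% also held a Ly6e UMI, beside 63.8%, 63.9% and 64.1% of those without. A UMI of the interferon gate list was found in 45.9%, 55.3% and 42.4% of cells with Ly6a and 20.8%, 25.8% and 22.2% of those without. Ly6c2 was found in 7.59%, 8.84% and 6.57% against 1.64%, 1.13% and 1.16%. The cells with Ly6a were thus more often positive for each of the 3 in every infarct heart.

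The MHC class II state, macrophages with high antigen presentation transcripts, was higher for 4 genes in the infarcts. Ly6a was 144, 163 and 123 CPM beside 44.7, 90.4 and 61.4 CPM (log2 fold 1.26 ± 0.12, edgeR adjusted p = 4.08e-05). This call held in 10 of 11 alternatives, over which the adjusted p rose to 0.0163. Ly6c2 was 30.8, 27.3 and 21.3 CPM beside 7.91, 14.1 and 11.1 CPM (1.36 ± 0.16, edgeR adjusted p = 0.000161). Ly6e was higher by a log2 fold of 0.29 ± 0.04 (edgeR adjusted p = 0.000804), a call lost without infarct replicate 2 and without the heart as a block (edgeR adjusted p = 0.0144 and 0.1). Ly6i, at 9.7, 2.58 and 2.57 CPM beside 0.959, 0.841 and 2.09 CPM, passed at an adjusted p of 0.00685 (edgeR, 1.90 ± 0.42) and lost the call in 5 of 11 alternatives, at 0.0176 without infarct replicate 1 and 0.0479 without replicate 2.

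The other states were lower or not separated. Reparative macrophage-like cells were below the rest for Ly6a (51.3, 87.2 and 60.4 CPM beside 101, 135 and 94.5 CPM, log2 fold -0.68 ± 0.06, edgeR adjusted p = 2.69e-05). They were also lower for Ly6e (-0.35 ± 0.04, edgeR adjusted p = 7.69e-05) and Ly6i (-1.39 ± 0.19, edgeR adjusted p = 0.000428). Without the heart as a block these 3 calls were lost, at adjusted p of 0.0833, 0.0458 and 0.059 (edgeR), and that of Ly6i also with stricter gates (0.0398). The resident state was lower for Ly6a (49.6, 68.6 and 42.6 CPM beside 81.3, 114 and 82.2 CPM, -0.97 ± 0.13, edgeR adjusted p = 7.41e-09) and Ly6c2 (-1.55 ± 0.28, edgeR adjusted p = 9.14e-06). Both calls held in 10 of 11 alternatives, over which the adjusted p rose to 0.0141 for Ly6a and 0.0267 for Ly6c2. The Saa3 and Arg1 state was lower for Ly6a alone (-1.16 ± 0.18, edgeR adjusted p = 1.36e-05, or 4.83e-19 to 0.0107 over the alternatives, highest without infarct replicate 2), and the proliferative state for Ly6c2 alone (-1.61 ± 0.17, edgeR adjusted p = 3.27e-06). Ly6e in the resident state was 1272, 1409 and 1055 CPM beside 837, 967 and 899 CPM, higher in 3 of 3 hearts, and did not pass (0.29 ± 0.12, edgeR adjusted p = 0.0669).

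Whether the genes differed between infarcted and uninjured hearts was examined first over all cells of a library. Ly6a was 23.4 CPM at baseline (22.3 to 24.6) and 100, 143 and 96.5 CPM in the infarcts, 4.83-fold higher in the mean. Ly6c1 was 13.5 CPM at baseline (12.6 to 14.4) and 1.16, 1.17 and 1.53 CPM in the infarcts, 10.4-fold lower. These 2 of 6 genes differed from baseline by 2-fold or more in every infarct library, where 6.78% of all genes did. Ly6c2 was 143 CPM at baseline and 90.9, 96.7 and 70.6 CPM in the infarcts. Ly6e was 798 CPM beside 959, 1023 and 950 CPM, Ly6i 13.4 beside 10.7, 6.0 and 5.51 CPM, and Ly6d 17.3 beside 8.04, 8.37 and 10.0 CPM.

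Over all cells, fewer cells of a type and less RNA per cell cannot be told apart. Baseline held 137 endothelial-like cells and the infarct libraries 8, 8 and 7, and at baseline these cells carried 70.7% of the Ly6c1 UMIs and 36.7% of the Ly6a UMIs. Classical monocyte-like cells carried 73.0% of the baseline Ly6c2 UMIs and 52.4% to 56.9% of those in the infarcts. Non-classical monocyte-like cells, 840 at baseline and 61, 64 and 72 in the infarcts, carried 52.0% of the baseline Ly6i UMIs. Macrophage-like cells carried 17.2% of the Ly6a UMIs at baseline and 54.8%, 63.4% and 67.8% in the infarcts. The median log2 difference over all genes was -0.21 with scaling to totals and 0.07 with TMM scaling, and the directions of Ly6a and Ly6c1 were the same under both.

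**Figure D5:**
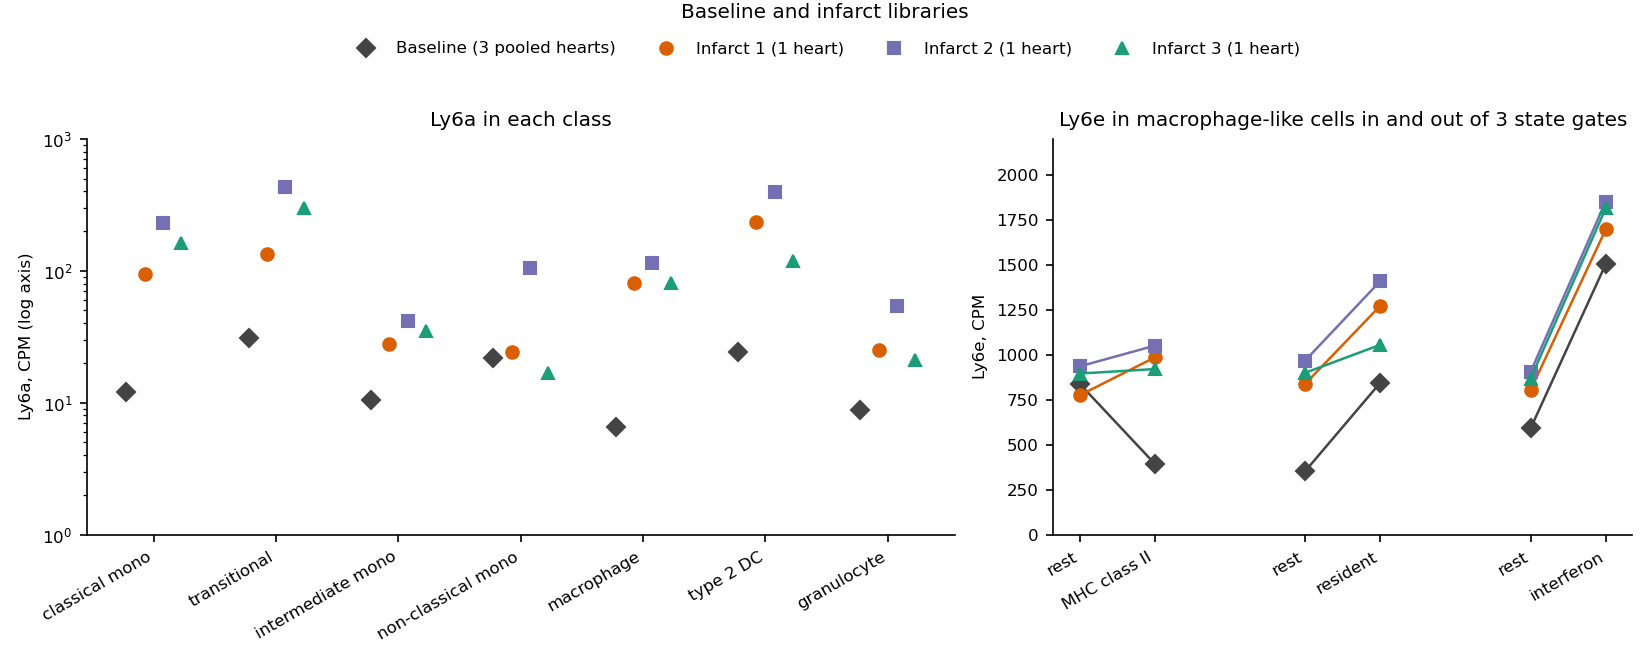
Left, Ly6a (CPM, log axis) in 7 classes by library. Right, Ly6e (CPM) in macrophage-like cells outside (rest) and inside the MHC class II, resident and interferon response gates, with lines joining values of 1 library. Ly6a is higher in all infarct libraries than at baseline in 6 of 7 classes, and the MHC class II line falls at baseline only.

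Within classes, Ly6a differed most between infarct and baseline. Macrophage-like cells had 6.53 CPM at baseline (5.78 to 7.35) and 80.4, 114 and 81.1 CPM in the infarcts, a mean of 91.7 ± 18.9 CPM (SD, n = 3) and a 14.0-fold ratio. Classical monocyte-like cells had 12.0 CPM at baseline (9.57 to 14.8) and 94.6, 230 and 163 CPM in the infarcts (162 ± 67.5, 13.6-fold), and 1 baseline cell held 37.6% of its 85 UMIs. Type 2 dendritic-like cells had 24.0 CPM (16.7 to 33.4) and 234, 393 and 119 CPM, a 10.4-fold ratio. Transitional cells had 31.1 CPM (22.0 to 42.7) and 134, 429 and 300 CPM (9.25-fold), and a single baseline cell held 47.4% of its 38 UMIs. Without cells over 20000 UMIs the log2 ratio of transitional cells was 4.81 in place of 3.21. Intermediate cells had 10.5 CPM (6.23 to 16.6) and 27.6, 41.4 and 35.2 CPM. In each of these classes the lowest infarct heart was above the upper limit of the baseline interval.

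Ly6a in granulocyte-like cells was 8.77 CPM from 1 baseline UMI and 25.2, 53.6 and 21.2 CPM in the infarcts. The baseline interval, 0.222 to 48.9 CPM, holds 2 of the 3 infarct values. Non-classical monocyte-like cells had 21.8 CPM at baseline and 24.3, 105 and 16.9 CPM in the infarcts, on both sides of baseline. Endothelial-like cells had 1576 CPM at baseline and 894, 745 and 478 CPM in the 8, 8 and 7 infarct cells, all below baseline. The difference in Ly6a therefore was not seen in every class.

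Of the other genes, and among values that reached 10 CPM at baseline or in the infarct mean, only Ly6i in classical monocyte-like cells and Ly6c2 in intermediate cells differed by 2-fold or more in every infarct library of a class. Ly6i was 16.2 CPM at baseline (13.4 to 19.5) and 38.5, 36.4 and 38.5 CPM in the infarcts, 2.33-fold higher. Its log2 ratio of 1.22 was 0.70 with thinned cells and with stricter gates. Ly6c2 in intermediate cells was 295 CPM (270 to 322) and 129, 82.8 and 113 CPM, 2.73-fold lower. The infarct values came from 28, 20 and 32 UMIs in 8, 9 and 11 cells. A single cell held 39.3% of them in replicate 1 and another 40.0% in replicate 2. Below 10 CPM, Ly6c1 in macrophage-like cells was 1.91 CPM at baseline and 0.332, 0.386 and 0.712 CPM in the infarcts. Its 80 baseline UMIs lay in 74 of 6194 cells, with at most 3 in a cell. Baseline also held 137 endothelial-like cells with 1747 CPM of Ly6c1. The part of RNA from such cells in the macrophage-like values was not tested. Ly6d in classical monocyte-like cells was 1.69 CPM beside 0.687, 0 and 0.313 CPM, from 12 baseline and 7 infarct UMIs. In all, 8 differences of this size were counted in 7 classes, 6 of them for Ly6a. The shares of all genes with such a difference were 3.46% for classical, 2.0% for intermediate and 1.72% for non-classical monocyte-like, 6.25% for transitional, 8.91% for macrophage-like, 6.1% for type 2 dendritic-like and 32.3% for granulocyte-like cells.

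Ly6e in macrophage-like cells was 601 CPM at baseline (594 to 609) and 850, 972 and 903 CPM in the infarcts (1.51-fold), and in type 2 dendritic-like cells 407 CPM (375 to 441) and 982, 1084 and 767 CPM. Ly6c2 in macrophage-like cells was 7.46 CPM (6.66 to 8.34) and 16.2, 18.3 and 14.3 CPM. At 2000 UMIs per cell, a Ly6c2 UMI was found in 0.786% of baseline and 2.12%, 1.95% and 1.60% of infarct macrophage-like cells. All 3 infarct hearts were above baseline for these values.

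The interferon-induced list was set beside Ly6a. In macrophage-like cells 4 of its 35 genes were 2-fold or more higher and 1 lower in every infarct library, where 8.91% of all genes differed so. Its median log2 ratio was 0.03, beside -0.23 over all genes. Of the 35, 14 were above baseline in all 3 hearts, a count for which no share over all genes was taken. Macrophage-like cells outside the interferon response state had 5.59 CPM of Ly6a at baseline and 68.1, 88 and 72.3 CPM in the infarcts, a 13.6-fold ratio. Inside the state it was 83.3 CPM in 68 baseline cells and 305, 444 and 300 CPM, a 4.2-fold ratio.

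The rest of the Ly6 and uPAR family was sparse in these cells. Of 36 further family genes listed, 16 were kept and 2 reached 10 CPM in a library. Plaur, the urokinase receptor, had 86.2 CPM at baseline and 57.2, 51.2 and 69.5 CPM in the infarcts over all cells. Cd177, a surface protein of neutrophils, had 16.6, 5.06, 3.16 and 3.67 CPM. Ly6g, the gene of the antigen excluded by the sort, had at most 0.0339 CPM.

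Genes with the most similar pattern were sought over 37 sums of class and library, from 11 classes, by Pearson correlation of log2(CPM + 10). Sums from 1 library share its depth, and these values are descriptions. Ly6d was most like Iglc3, Fcrla and Mzb1 (r = 0.971, 0.971 and 0.968), which are B cell and plasma cell genes, and Ptprcap (0.965). Ly6i was most like Cyp2ab1, 3110082I17Rik, Gm17354, S1pr5 and Ear2 (0.848 to 0.878). Ly6e was most like Mef2d (0.848), Stt3b (0.838), Fam43a (0.791), Tgfb1 (0.787) and Cd180 (0.780). Ly6c2 and Ly6a had weaker partners, led by Cib1 (0.755) for Ly6c2 and by Smim14 (0.721), Ptch1 (0.714) and Cd38 (0.714) for Ly6a.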

How the data were processed

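The deposited files hold raw UMI counts per gene and cell, with no normalisation. The authors made them from 3′ v3.1 droplet libraries with Cell Ranger (3.1.0 in the file headers, 3.0.1 in the submitters' processing notes) on mm10. Cells with 500 to 40000 UMIs and over 200 genes, and genes in at least 3 cells, were kept, by the thresholds that the study states. Each cell was assigned by UMIs per 10000 of marker lists, with at least 3 markers detected. Some of the markers are not reported here. Lists and members were chosen with earlier results of these data known, and the gate cuts (10 to 200 UMIs per 10000) after the gate genes had been seen, without reading the Ly6 genes. Transitional and intermediate cells pass several gates by definition, plasmacytoid dendritic-like cells may do so, and all of these were kept. Other cells past the gates of several classes or of none stayed out of the tests. Of all cells with enough markers, 1645 lay within 20% of the macrophage cut, above or below it, and 558 for the classical monocyte cut. No doublet caller was run.

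Counts were summed per heart and class. Within the 3 infarct libraries they were compared with edgeR 4.0.16 (R 4.3.3; TMM, filterByExpr, quasi-likelihood test, two-sided) and called at 0.01 after Benjamini-Hochberg adjustment across all tested genes. The heart was a block, since both sums of a pair come from 1 heart. Each SE was derived from the test, as the absolute log2 fold over the square root of its F statistic. The script was tested on simulated data. Infarct and baseline were compared as CPM without a test, and a difference was counted where all 3 infarct libraries lay 2-fold or more on 1 side of baseline and the baseline or mean infarct level reached 10 CPM. All 6 genes are reported, with the further family genes that reached 10 CPM in a library. Likeness was sought among genes that reached 20 CPM in a sum of 20 or more cells and that no gate uses. Shares of cells were also taken after thinning to 2000 UMIs. Intervals are exact (scipy 1.17.1), and sequences were aligned with Biopython 1.88. The alternatives dropped the count filter, dropped the block, took size factors or the Wald test from DESeq2 1.42.0, or used the data with each infarct library left out, macrophage-like cells as the only comparator, stricter gates, thinned cells, cells under 20000 UMIs, cells under 10% mitochondrial UMIs, TMM scaling and means over cells.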

Additional observations from a re-analysis of the deposited data

Results flagged for a closer look

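Ly6e in macrophage-like cells had a different direction across the MHC class II gate at baseline and in the infarcts. The log2 ratio of cells inside over outside the gate was -1.09 at baseline, from 393 and 838 CPM, and 0.35, 0.17 and 0.04 in infarct replicates 1, 2 and 3. Baseline moved one way and all infarct hearts the other, and the difference was not tested, since baseline is 1 library. At baseline 2868 of 6194 macrophage-like cells passed the resident gate, with 844 CPM of Ly6e beside 352 CPM in the others, while 216, 93 and 212 cells passed it in the infarcts. The part of the resident cells in the direction was not tested.

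Cells that no comparison used also held Ly6 transcripts. Cells of no class, 1244 at baseline and 1162, 826 and 1007 in the infarcts, had 46.8, 70.5, 104 and 72.4 CPM of Ly6c2. They had 16.2 CPM of Ly6a at baseline and 136, 208 and 123 CPM in the infarcts, and 421, 789, 767 and 792 CPM of Ly6e. Doubly gated cells, 290 at baseline and 184, 130 and 155 in the infarcts, had 72.5, 228, 328 and 202 CPM of Ly6a. Their Ly6d was 117, 177, 154 and 253 CPM, and at baseline 198 of its 324 UMIs lay in 36 doubly gated cells that passed the B cell gate.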

How the results depend on the processing

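The counts of calls moved by over 1.5 times in 2 settings. Without the replicate block (the heart), 6 pairs of gene and macrophage state were called in place of 15, and 29 of the 46 called log2 folds of all tests kept their call. With stricter gates, which left 5 of 7 classes to compare, 5 differences between infarct and baseline were counted in place of 8. Leaving out 1 infarct library gave 20 to 30 class calls (27 with all libraries), 11 to 16 state calls (15), 3 to 5 calls against macrophage-like cells (4), 2 to 3 differences from baseline over all cells (2) and 8 to 11 within classes (8). Directions turned for Ly6c2 alone, and with macrophage-like cells as the only comparator alone: 0.49 for non-classical monocyte-like, 0.45 for type 2 dendritic-like and 1.15 for granulocyte-like cells on the log2 scale, at edgeR adjusted p of 0.424, 0.0784 and 0.0356, all short of the threshold. The cause of these changes was not tested. All 46 calls held with DESeq2 size factors, without a count filter and without cells over 20000 UMIs, and 44 of 46 with the DESeq2 Wald test. Of the 10 differences between infarct and baseline, none turned direction under the alternatives run, but values moved by more than the spread between hearts. With TMM scaling 3 of 10 moved, with means over cells 4 of 10 (Ly6a over all cells from a log2 ratio of 2.27 to 1.57), with thinned cells 3 of 7 (Ly6a in type 2 dendritic-like cells from 3.37 to 4.28), with stricter gates 2 of 7 (Ly6a in granulocyte-like cells from 1.93 to 2.66) and without cells over 20000 UMIs 1 of 10. Only 1 pooled library stands for baseline, and p-values rest on 3 hearts of a single time point.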
